A study of Mus musculus with 24 samples.

Results

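Phox2a, Hand2, Gata2, Gata3, Isl1, Insm1 and Mycn encode 7 transcription factors of the sympathoadrenal lineage, from which neuroblastoma arises. They were chosen by name and by their known roles, not by a rule on a measured value, but with earlier results of these data known. All 7 were found by gene symbol in each of 8 count tables, among 12759 transcripts listed in at least 1 table and 10506 listed in every table. The tables come from mouse neuroblastoma N2a cells, in which RNA-seq measured mRNA and ribosome profiling (ribo-seq) measured ribosome footprints, the stretches of mRNA that a ribosome protects from nuclease. Ctrl cells were N2a cells transfected with the empty pSpCas9(BB)-Puro vector, and KO cells had received vectors for 3 guide RNAs against exons of Eif4e3, which encodes a cap-binding protein of the eIF4E family. Both lines went through puromycin selection, no cloning step is described, and each is a single selected population, so a difference between the lines cannot be told apart from a difference between the 2 populations. Each line received either DMSO or Torin1, an inhibitor of the kinase mTOR, at 250 nM, and was harvested after 2 h. The 3 replicates of a condition were different passages of the same cells, and p-values measure the spread between passages. Footprints of ctrl cells under DMSO rest on replicates 1 and 3, since replicate 2 was not analysed here.

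In the embryo, sympathetic neurons and chromaffin cells descend from neural crest, and a small circuit of transcription factors that bind each other's genes fixes their noradrenergic fate. Phox2a is a homeodomain factor that activates the gene of dopamine beta-hydroxylase, Hand2 is a basic helix-loop-helix factor needed for noradrenergic differentiation, and Gata2 and Gata3 are zinc finger factors that act downstream of the Phox2 proteins. Isl1 is a LIM-homeodomain factor of sympathetic and sensory neurons, Insm1 is a zinc finger factor of neuroendocrine cells, and Mycn is the neuroblastoma oncogene, a partner of Max and a close relative of Myc. mTOR drives translation of many mRNAs, above all those with a 5′ terminal oligopyrimidine tract, by keeping the eIF4E-binding proteins phosphorylated.

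The RNA-seq libraries held 17047795 to 28910907 counts and the ribo-seq libraries 669010 to 5284909, the lowest of these being ctrl DMSO replicate 3. The 7 factors had 90 to 5851 counts per RNA-seq library (median 836) but only 11 to 477 per ribo-seq library (median 132). Eif4e3 mRNA was 16.1 ± 3.61 CPM (counts scaled to library size; SD, n = 3) in ctrl and 3.85 ± 1.07 (n = 3) in KO under DMSO, a log2 change of -2.05 ± 0.24 (SE) (edgeR, adjusted p = 0.0312). Of 10 neuroblastoma markers 9 were listed, with Tubb3 mRNA at 923 to 1547 CPM. Of the markers of other cells, 2 of 6 for Schwann cells, 3 of 7 for fibroblasts, 2 of 2 for endothelium and 0 of 1 for leukocytes were listed. The Schwann cell gene Sox10 and the fibroblast genes Col1a2 and Col3a1 were in no table, while Pecam1 of endothelium was measured at 2.32 to 4.58 CPM of mRNA. Footprints of Pecam1 averaged 0.36 CPM in ctrl DMSO and 4.79 CPM in ctrl Torin1. All libraries come from selected N2a populations, and whether any other cells were present was not tested.

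The counted transcripts place the factors as follows in GRCm38, by the GENCODE M21 annotation. Phox2a lies at chr7:101818313-101822726 on the plus strand, Hand2 at chr8:57320983-57324633 on the plus strand, and Gata2 at chr6:88193891-88207032 on the plus strand. Gata3 lies at chr2:9857078-9878600 on the minus strand, Isl1 at chr13:116298281-116309689 on the minus strand, Insm1 at chr2:146221921-146225020 on the plus strand as a gene of 1 exon, and Mycn at chr12:12936093-12941914 on the minus strand. The 5′ transcript leader (TL) of Hand2 had 924 nt, longer than 98.8% of the 9721 transcripts with enough counts in both assays, and held 5 upstream ATG triplets. That of Gata3 had 591 nt, longer than 94.9%, with a GC content of 52.3% and 1 upstream ATG. The TLs of Mycn (372 nt, longer than 83.5%) and Insm1 (345 nt, longer than 80.9%) were also above the upper quartile of 295 nt. Those of Isl1 (267 nt), Phox2a (185 nt) and Gata2 (154 nt) lay nearer the median of 171 nt. None of the 7 counted transcripts started with a pyrimidine. An exon of the gene Gm13256 overlaps the coding sequence (CDS) of Gata3 on the other strand. The RNA-seq libraries were made with a stranded kit, but the strand setting of the counting is not given in the sources used here. Whether Gata3 counts include reads of Gm13256 was not tested.

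Mycn and Gata3 changed at the mRNA level in opposite directions under Torin1, so the RefSeq promoters of both (GRCm38.p6) are printed, 5′ to 3′ on the minus strand, with matches to an E2F motif in capitals. The Mycn stretch is chr12:12941915-12942086, of 172 bases, and leaves out 78 bases that lie within the counted transcript. The Gata3 stretch is chr2:9878601-9878850, of 250 bases and 70% GC.
Mycn: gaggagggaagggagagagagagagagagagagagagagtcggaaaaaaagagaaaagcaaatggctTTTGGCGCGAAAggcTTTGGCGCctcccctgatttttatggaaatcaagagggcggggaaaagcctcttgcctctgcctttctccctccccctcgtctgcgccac
Gata3: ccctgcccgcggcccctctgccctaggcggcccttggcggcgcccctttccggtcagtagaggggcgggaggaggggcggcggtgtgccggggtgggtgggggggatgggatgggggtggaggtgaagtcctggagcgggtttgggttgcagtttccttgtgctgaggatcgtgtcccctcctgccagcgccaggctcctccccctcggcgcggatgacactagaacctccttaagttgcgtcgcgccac

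The capitals of Mycn hold 3 matches to TTTCGCGC or TTTGGCGC, searched on both strands, which begin 105, 101 and 90 bases before the start of the counted transcript. The one in the middle lies on the other strand and overlaps the first. Of 32851 RefSeq promoters, each read over 250 bases and so longer than the printed Mycn stretch, 0.654% held a match to either form. None of the other 5 factors with a RefSeq promoter had one, and Insm1 had no entry. The other motifs searched, on both strands, were the E-box CACGTG (in 6.02% of promoters), the forkhead motif GTAAACA (3.17%), the GATA motifs AGATAA and TGATAA (16.6%), the bHLH motif CATCTG (14.4%), TATAAA (12.4%) and CCAAT (33.8%). The printed Gata3 promoter matched none of the motifs searched, and no other stretch of this gene was searched. The annotated Gata3 gene reaches base 9890034, upstream of the start of the counted transcript. Hand2 had 2 GATA matches and 1 bHLH match, and Isl1 had 1 GATA match. CCAAT had 2 matches each in Phox2a, Hand2, Isl1 and the Gata2 promoter at chr6:88198414-88198663. Matches describe these letters only and are not binding sites.

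In ctrl cells under DMSO, mRNA levels per kb of CDS (RPKM) spanned from Hand2 to Gata3. Hand2 stood at 338 ± 30.9 (SD, n = 3), above 95.9% of the 12122 transcripts ranked, followed by Gata2 at 78.1 ± 8.74 and Phox2a at 55.0 ± 6.08. Mycn was lower at 17.5 ± 2.17, near the middle of all transcripts (48.5th percentile), then Isl1 at 13.7 ± 0.299, Insm1 at 10.7 ± 3.64 and Gata3 at 7.03 ± 0.426 (30.2nd percentile). Of neighbours in this order only Isl1 and Insm1 overlapped between libraries. In the other conditions Hand2 stayed first and Gata2 second, and Mycn stood next to Phox2a in KO cells under Torin1 (46.5 ± 5.22 against 55.9 ± 11.3), where their libraries overlapped. In these bulk samples, fewer cells that express a gene and less RNA per cell cannot be told apart.

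The order of footprint density was not the order of mRNA. In ctrl DMSO the footprint RPKM averaged 247 for Hand2, 89.7 for Phox2a, 39.4 for Gata2, 37.8 for Insm1, 30.7 for Isl1, 18.8 for Mycn and 11.02 for Gata3 (n = 2). Translation efficiency (TE), here footprint CPM divided by mRNA CPM of the same replicate, ranked Insm1 at the 96.7th percentile of 9721 transcripts, Isl1 at the 90.1st, Phox2a at the 79.6th and Gata3 at the 79.0th. Mycn was close to the middle (55.0th), while Hand2 (38.6th) and Gata2 (18.5th), with the most abundant mRNAs of the 7, ranked lowest. The 2 ctrl DMSO libraries were far apart for several of them: TE was 5.43 and 1.68 for Insm1, 1.58 and 2.96 for Isl1, and 0.517 and 1.04 for Hand2. In KO cells under DMSO, with 3 libraries, Insm1 ranked at the 94.2nd percentile, Phox2a at the 77.01st, Mycn at the 60.9th and Gata2 at the 17.1st. Isl1 stood lower there than in ctrl, at the 56.2nd, as did Gata3 at the 58.6th and Hand2 at the 13.8th, below Gata2.

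**Figure D1:**
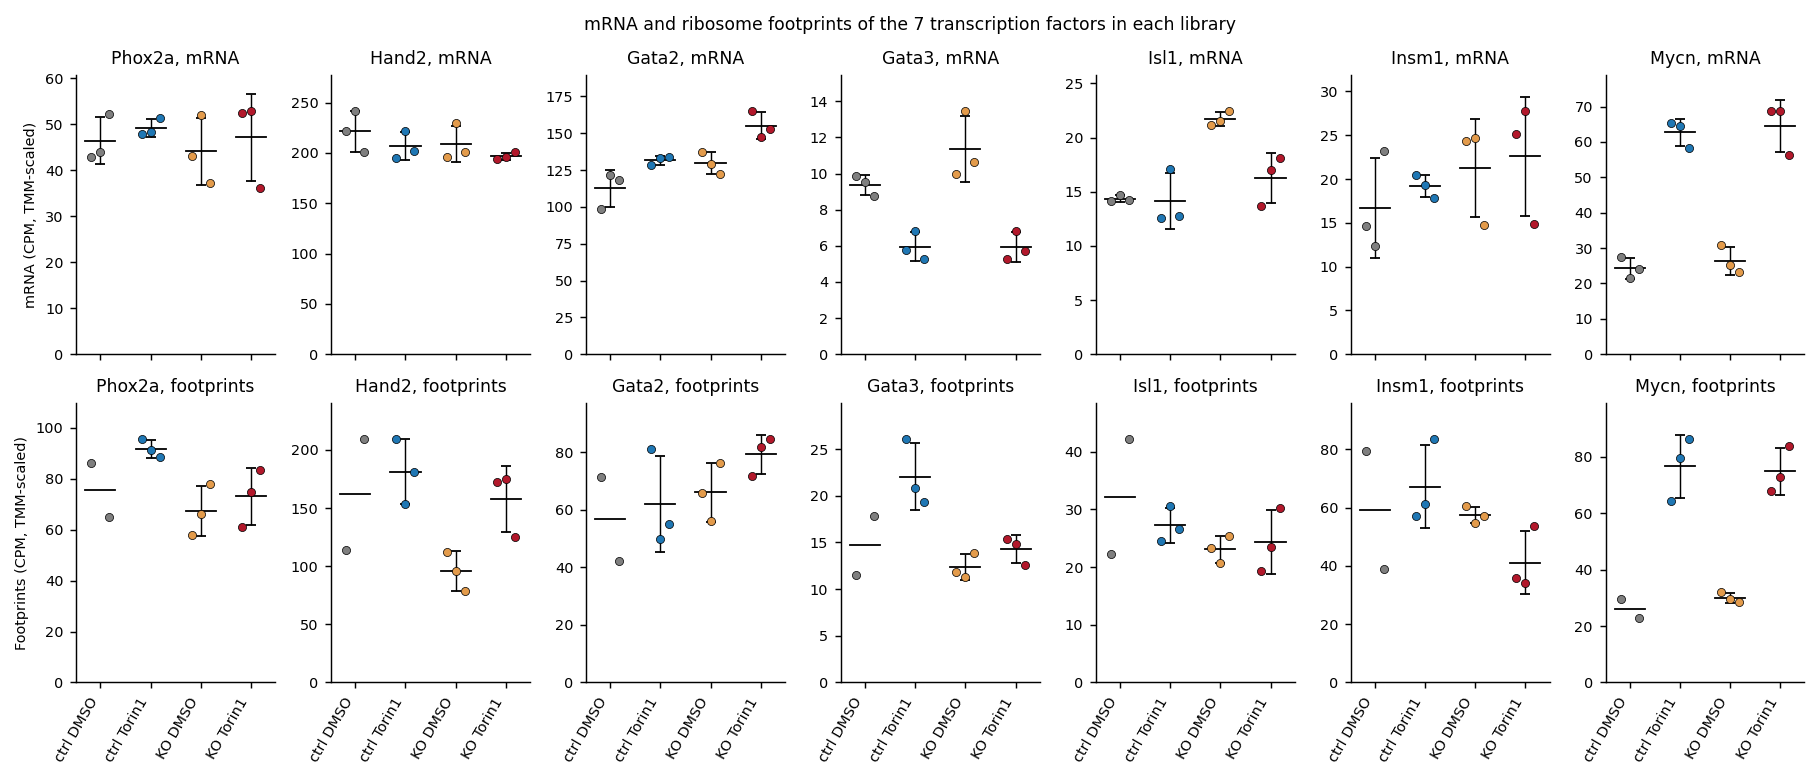
mRNA (upper row) and footprint (lower row) levels of the 7 transcription factors in CPM after TMM scaling, by condition; each point is 1 library, bars are condition means, and ctrl DMSO has 2 footprint libraries. Mycn rose with Torin1 in both lines and both assays without overlap, from 21.4 to 30.7 CPM of mRNA under DMSO to 56.2 to 68.7 with Torin1.

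The first comparison asked what 2 h of mTOR inhibition did to the factors in each line. Mycn mRNA and footprints rose more than 2-fold in both lines, with no detected change of TE. Gata3 moved the other way at the mRNA level: its mRNA fell in KO cells, with a decrease of similar direction in ctrl that missed the threshold, while its TE rose in both lines. Hand2 mRNA showed no detected change, and its footprints and TE rose in KO cells. Phox2a passed no test in any comparison.

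Counts are given at an adjusted p under 0.05 (edgeR quasi-likelihood test, over all transcripts), beside the share of all tested transcripts that passed the same test. Of the 7 factors, 1 changed in mRNA with Torin1 in ctrl, where 2.73% of transcripts did, and 4 in KO (2 higher, 2 lower), where 9.97% did. With the replicate number as a block, the mRNA of 2 of 7 was called in ctrl, beside 1328 of 10958 transcripts. At the footprint level 1 of 7 changed in ctrl (2 with the replicate block) against 15.6% of transcripts, and 3 of 7 in KO (2 higher, 1 lower) against 40.6%. For TE, 1 of 7 changed in ctrl against 4.68%, and 2 of 7 in KO, both higher, against 28.4%. The median log2 changes of the 7 were 0.09 and 0.10 for mRNA, 0.21 and 0.21 for footprints, and 0.11 and 0.00 for TE in ctrl and KO, where the medians over all transcripts tested lay within 0.02 of 0. With 7 genes, footprint counts near the background share say nothing particular about the group. Comparisons that share a condition share its libraries.

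Footprint and TE changes are relative to the TMM scaling. Without scaling beyond library size, the median of all transcripts moved to 0.23 (ctrl) and 0.26 (KO) for footprints and to 0.16 and 0.24 for TE. The share of higher among called transcripts then went from 36.4% to 71.2% and from 45.5% to 71.1% for footprints, and from 8.20% to 36.0% and from 37.4% to 69.4% for TE.

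Mycn, whose protein pairs with Max on E-boxes to raise transcription of growth genes, had the largest increase of mRNA and footprints with Torin1 among the 7, in ctrl and in KO. Its mRNA was 27.4, 21.4 and 24.0 CPM in ctrl DMSO replicates 1 to 3 and 65.3, 64.5 and 58.4 CPM with Torin1. In KO cells it was 30.7, 25.2 and 23.1 CPM with DMSO and 68.7, 68.7 and 56.2 CPM with Torin1. Every Torin1 library was above every DMSO library in both lines. The fold change was 2.59 in ctrl (log2 1.37 ± 0.13 (SE), edgeR adjusted p = 0.000133) and 2.46 in KO (1.30 ± 0.12, edgeR adjusted p = 3.79e-05), beyond the 99th percentile of changes in both. All 12 alternatives kept both calls.

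Mycn footprints rose in parallel. They were 29.5 and 22.7 CPM in ctrl DMSO replicates 1 and 3, the latter from 14 counts, and 64.4, 79.6 and 86.3 CPM with Torin1. In KO they were 32.0, 29.5 and 28.5 CPM with DMSO and 67.8, 72.8 and 84.03 CPM with Torin1. Again no library overlapped. The fold change was 2.77 in ctrl (log2 1.47 ± 0.21, edgeR adjusted p = 6.17e-05) and 2.46 in KO (1.30 ± 0.15, edgeR adjusted p = 1.85e-08), and without the shallow ctrl DMSO replicate 3 it was 1.39 ± 0.22 on the log2 scale in ctrl. Mycn TE ranged from 0.946 to 1.496 over all conditions. Its log2 change under Torin1 was 0.11 in ctrl, with a 95% interval of -0.39 to 0.61, and 0.00 in KO, from -0.37 to 0.38, so a TE change as large as that of the mRNA was outside both intervals.

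Gata3, the GATA factor of sympathetic neurons that sustains expression of noradrenergic enzymes, had the lowest mRNA per kb of the 7. Its mRNA was 9.84, 9.52 and 8.74 CPM in ctrl DMSO and 5.77, 6.84 and 5.28 CPM in ctrl Torin1. In KO it was 10.0, 13.5 and 10.7 CPM with DMSO and 5.27, 6.83 and 5.71 CPM with Torin1. No Torin1 library reached the lowest DMSO library in either line. In KO the mRNA fell to 0.527 times its DMSO level (log2 -0.92 ± 0.16, edgeR adjusted p = 0.0041, 12 of 12 alternatives). In ctrl the log2 change was -0.65 ± 0.17 with an edgeR adjusted p of 0.0686, and 5 of 12 alternatives called it, among them the replicate block (adjusted p = 0.0236) and DESeq2 (0.0329), with a range of 0.0153 to 0.278.

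Gata3 footprints passed no test with Torin1. They were 11.5 and 17.8 CPM in ctrl DMSO and 26.1, 20.8 and 19.3 CPM in ctrl Torin1, from 11 to 54 counts per library. In KO they were 11.9, 11.3 and 13.9 CPM with DMSO and 15.4, 14.8 and 12.6 CPM with Torin1. The ctrl groups did not overlap, the KO groups did, and neither log2 change passed (0.76 ± 0.30 in ctrl, edgeR adjusted p = 0.0985, and 0.21 ± 0.25 in KO, edgeR adjusted p = 0.526). The ctrl change depended on 1 library: it was 0.92 (edgeR adjusted p = 0.0431) without replicate 3 of ctrl DMSO and 0.29 (edgeR adjusted p = 0.795) without replicate 1, within a range of 0.029 to 0.795 over the alternatives.

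The TE of Gata3 rose in both lines. It was 1.17 and 2.04 in ctrl DMSO and 4.52, 3.05 and 3.65 in ctrl Torin1, and in KO it went from 1.19, 0.839 and 1.30 to 2.93, 2.17 and 2.20. Groups did not overlap. The change was 2.65-fold in ctrl (log2 1.40 ± 0.34, edgeR adjusted p = 0.0163) and 2.20-fold in KO (1.14 ± 0.28, edgeR adjusted p = 0.00364). All 16 alternatives kept the KO call and 13 of 15 the ctrl call, which was lost without ribo-seq ctrl DMSO replicate 1 (0.94, edgeR adjusted p = 0.354) and without RNA-seq ctrl Torin1 replicate 3 (1.32, edgeR adjusted p = 0.0549), in a range of 0.0108 to 0.354. Gata3 went from the 79.0th to the 96.8th percentile of TE in ctrl and from the 58.6th to the 90.7th in KO. The overlap with Gm13256 noted above applies to these values, and its part in them was not tested.

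**Figure D2:**
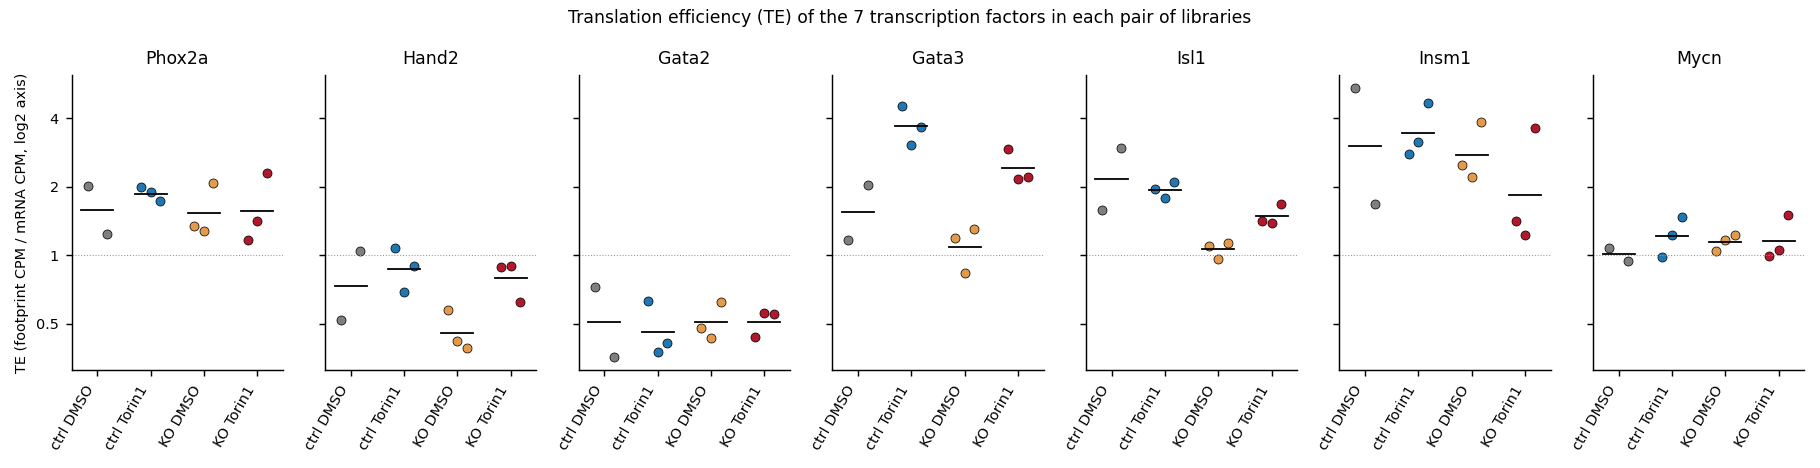
TE of the 7 transcription factors by condition, as footprint CPM divided by mRNA CPM of the same replicate, on a log2 axis; each point is 1 replicate and bars are geometric means. Gata3 TE was 0.839 to 2.04 under DMSO and 2.17 to 4.52 with Torin1, while Mycn stayed between 0.946 and 1.496.

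Hand2, the bHLH factor with the highest mRNA and the longest TL of the 7, kept its mRNA level within the spread of replicates. It was 221, 242 and 201 CPM in ctrl DMSO, 195, 222 and 202 CPM in ctrl Torin1, 196, 230 and 201 CPM in KO DMSO and 194, 196 and 201 CPM in KO Torin1. The log2 changes were -0.10 (95% interval -0.31 to 0.12) in ctrl and -0.08 (-0.23 to 0.06) in KO. Its footprints were 113, 96.2 and 78.9 CPM in KO DMSO and 173, 175 and 125 CPM in KO Torin1, every Torin1 library being higher. They rose 1.63-fold (log2 0.71 ± 0.14, edgeR adjusted p = 0.000128), and TE rose 1.73-fold (0.79 ± 0.17, edgeR adjusted p = 0.00089), from 0.574, 0.419 and 0.392 to 0.892, 0.894 and 0.624. Every alternative kept both calls.

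In ctrl cells the 2 DMSO libraries of Hand2 gave 114 and 209 CPM of footprints against 209, 153 and 181 CPM with Torin1, and overlapped. The log2 change was 0.27 ± 0.21 (edgeR adjusted p = 0.429), and the TE change 0.35 ± 0.25 (edgeR adjusted p = 0.54). Both values depended on which DMSO library was kept. Without replicate 3 the footprint change was 0.65 ± 0.17 (edgeR adjusted p = 0.00825) and the TE change 0.76 ± 0.22 (0.0628), and without replicate 1 they turned to -0.21 ± 0.20 (edgeR adjusted p = 0.607) and -0.11 ± 0.24 (0.878). With the replicate block the footprint change was 0.40 (edgeR adjusted p = 0.0426), in a range of 0.00825 to 0.707 over the alternatives. The ctrl and KO responses were not shown to differ (interaction 0.45 ± 0.26 for footprints, edgeR adjusted p = 0.814). It was 0.07 without replicate 3 of ctrl DMSO and 0.94 (edgeR adjusted p = 0.0941) without replicate 1.

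Insm1, a zinc finger repressor that acts in neuroendocrine differentiation, varied between replicates in mRNA (12.4 to 23.2 CPM in ctrl DMSO and 14.8 to 24.7 CPM in KO DMSO), and its mRNA passed the test in no comparison. Its footprints in KO were 60.4, 54.8 and 57.0 CPM with DMSO and 35.7, 34.0 and 53.7 CPM with Torin1, lower without overlap. They fell to 0.701 times the DMSO level (log2 -0.51 ± 0.16, edgeR adjusted p = 0.0123). The call was lost without scaling beyond library size (-0.26, edgeR adjusted p = 0.192) and without KO Torin1 replicate 1 (-0.42, 0.076) or 2 (-0.39, 0.108), in a range of 0.00136 to 0.192. In ctrl the values, 79.4 and 38.9 CPM with DMSO and 57.2, 61.1 and 83.4 CPM with Torin1, overlapped, with a log2 change of 0.01 ± 0.23. The TE of Insm1 in KO changed by -0.61 ± 0.30 (edgeR adjusted p = 0.132, with the replicate block 0.00951, in a range of 0.00951 to 0.366).

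Isl1, which marks sympathetic and sensory neuroblasts, was 21.2, 21.6 and 22.4 CPM of mRNA in KO DMSO and 13.7, 17.0 and 18.1 CPM in KO Torin1. It fell without overlap to 0.749 times the DMSO level (log2 -0.42 ± 0.12, edgeR adjusted p = 0.0453). This call held in 4 of 12 alternatives and was lost, with adjusted p up to 0.143, in 5 of the 6 fits that left out 1 library, as well as without scaling beyond library size (0.0652), with no filter on low counts (0.0505) and in the fit of all 4 conditions (0.0939), in a range of 0.0117 to 0.143. In ctrl its mRNA was 14.1, 14.7 and 14.2 CPM with DMSO and 12.6, 17.1 and 12.7 CPM with Torin1, a log2 change of -0.02 ± 0.16. Isl1 footprints showed no call, at 0.01 ± 0.27 in ctrl and 0.05 ± 0.20 in KO on the log2 scale.

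Gata2, which acts beside Gata3 in sympathetic precursors, had a small increase of mRNA with Torin1 in KO cells, from 138, 129 and 122 CPM to 165, 148 and 153 CPM, without overlap. The level was 1.199 times that with DMSO (log2 0.26 ± 0.07, edgeR adjusted p = 0.0416), held in 6 of 12 alternatives and lost in the fit of all 4 conditions (0.12) and in 5 fits that left out 1 library, with edgeR adjusted p from 0.0544 to 0.156, in a range of 0.0176 to 0.156. In ctrl it was 98.4, 122 and 118 CPM with DMSO and 128, 133 and 134 CPM with Torin1, again without overlap, and the log2 change of 0.23 ± 0.11 did not pass (edgeR adjusted p = 0.247). Gata2 TE stayed at 0.357 to 0.726 in all conditions. Phox2a mRNA ranged from 36.2 to 52.9 CPM over all libraries, its footprints from 58.1 to 95.5 CPM, and its log2 changes under Torin1 lay between -0.02 and 0.21.

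**Figure D3:**
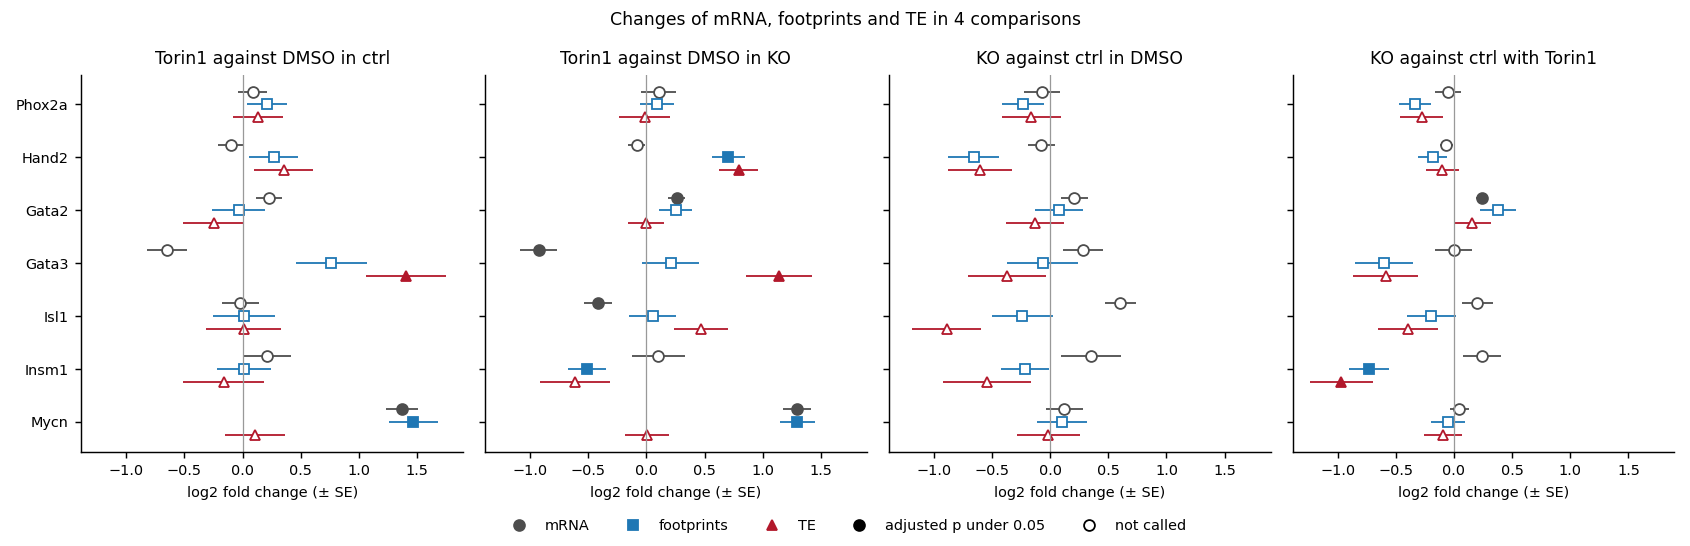
Log2 fold changes (± SE) of mRNA (circles), footprints (squares) and TE (triangles) of the 7 transcription factors in 4 comparisons; filled symbols passed an adjusted p of 0.05 (edgeR). Mycn mRNA and footprints lie together near 1.30 to 1.47 with TE near 0, whereas Gata3 mRNA lies at -0.65 and -0.92 and its TE at 1.40 and 1.14.

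The second comparison asked what loss of Eif4e3 changed. Under DMSO none of the factors passed the test at any level. Under Torin1, Gata2 mRNA was higher and Insm1 footprints and TE were lower in KO than in ctrl. Mycn passed no test between the lines.

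Under DMSO 0 of 7 factors were called for mRNA, where 0.0183% of transcripts were (2 of 10924), with 1 of 7 at an unadjusted p under 0.05 in edgeR, 0 called by DESeq2 and 1 by the edgeR exact test. The replicate block called 1 of 7 there, beside 866 of 10924 transcripts. For footprints 0 of 7 were called against 0.0279% (3 of 10757), with 1 of 7 at an unadjusted p under 0.05 in edgeR and 0 by DESeq2 and by the exact test. For TE 0 of 7 were called against 0%, with 2 of 7 factors and 426 of 10475 transcripts at an unadjusted p under 0.05 in edgeR, and 0 transcripts by limma-voom. With Torin1, 1 of 7 was called for mRNA (1.96% of 11007 transcripts), 1 of 7 for footprints (6.03%) and 1 of 7 for TE (2.85%). For footprints, 4 of 7 and 2187 of 10792 transcripts had an unadjusted p under 0.05 there in edgeR. Median log2 differences of the 7 were 0.21 (mRNA), -0.22 (footprints) and -0.37 (TE) under DMSO, and 0.05, -0.19 and -0.28 with Torin1. Medians over all transcripts lay between -0.03 and 0.01. All TE differences under DMSO were negative (-0.89 to -0.02), and they share the ctrl footprint libraries.

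Isl1 had the clearest separation between the lines under DMSO. Its mRNA of 21.2, 21.6 and 22.4 CPM in KO lay above the 14.1, 14.7 and 14.2 CPM of ctrl. This 1.52-fold difference (log2 0.60 ± 0.13) had an unadjusted p of 0.000849 and an edgeR adjusted p of 0.354, and passed with the replicate block (0.00358) and in the exact test (0.0363), 2 of 12 alternatives, in a range of 0.00358 to 0.998. Footprints of Isl1 were 22.3 and 42.2 CPM in ctrl and 23.3, 20.7 and 25.4 CPM in KO, overlapping, with a log2 difference of -0.24 ± 0.26. Its TE was accordingly lower in KO, 1.10, 0.961 and 1.13 against 1.58 and 2.96 in ctrl (log2 -0.89 ± 0.29, edgeR adjusted p = 0.978), and the difference was -0.56 without the shallow ctrl library. With Torin1 the mRNA of the lines overlapped (log2 0.20 ± 0.14).

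Hand2 footprints under DMSO were 113, 96.2 and 78.9 CPM in KO and 114 and 209 CPM in ctrl. The highest KO library lay just under the lowest ctrl library, so the groups did not overlap, and the log2 difference of -0.66 ± 0.22 did not pass (edgeR adjusted p = 0.529). It was -0.25 (edgeR adjusted p = 0.694) without ctrl replicate 3 and -1.13 (0.138) without ctrl replicate 1, and no alternative called it. With Torin1 the difference was -0.18 ± 0.13.

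Insm1 footprints with Torin1 were 57.2, 61.1 and 83.4 CPM in ctrl and 35.7, 34.0 and 53.7 CPM in KO, 0.603 times as high without overlap (log2 -0.73 ± 0.17, edgeR adjusted p = 0.00666). The call held in 9 of 12 alternatives and was lost without ctrl Torin1 replicate 3 (0.0954) and without KO Torin1 replicate 1 (0.0532) or 2 (0.0887), in a range of 0.000819 to 0.0954. Its TE was 2.80, 3.15 and 4.68 in ctrl and 1.42, 1.22 and 3.61 in KO, which overlapped, at a ratio of 0.511 (log2 -0.97 ± 0.27, edgeR adjusted p = 0.0472). That call held in 5 of 16 alternatives and was lost in limma-voom (adjusted p = 0.163) and in 10 fits without 1 library (0.0513 to 0.153), in a range of 0.0028 to 0.163.

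Gata2 mRNA with Torin1 was 128, 133 and 134 CPM in ctrl and 165, 148 and 153 CPM in KO, 1.18-fold higher without overlap (log2 0.24 ± 0.05, edgeR adjusted p = 0.0349). The call was lost in each fit that left out 1 library (0.0576 to 0.125) and in the fit of all 4 conditions (0.734), in a range of 0.00219 to 0.734. Gata2 footprints differed by 0.38 ± 0.16 (edgeR adjusted p = 0.145). Gata3 footprints (log2 -0.60 ± 0.25, edgeR adjusted p = 0.149) and Phox2a footprints (-0.33 ± 0.14, edgeR adjusted p = 0.154) were lower in KO with Torin1 without overlap and did not pass. For Mycn, the KO to ctrl differences in mRNA were 0.12 (95% interval -0.18 to 0.43) under DMSO and 0.05 (-0.11 to 0.20) with Torin1, and in footprints 0.10 (-0.32 to 0.52) and -0.05 (-0.33 to 0.23).

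Whether the response to Torin1 differed between the lines was tested as an interaction. Of 7 factors, 0 were called for mRNA, where 0% of transcripts were (0 of 11072 by edgeR and by DESeq2, 108 at an unadjusted p under 0.05), 0 for footprints, where 0.114% were (12 of 10563), and 0 for TE, where 0% were (0 of 10376 by edgeR and by limma-voom, 591 at an unadjusted p under 0.05). None of the 7 had an unadjusted p under 0.05 at any level. Isl1 mRNA came nearest, at -0.40 ± 0.19 (unadjusted p = 0.057 and edgeR adjusted p = 0.999). The interaction for Mycn mRNA was -0.08, with a 95% interval of -0.43 to 0.28. The calls made in KO but not in ctrl, for Hand2, Insm1, Isl1 and Gata2 and for Gata3 mRNA, were thus not shown to be particular to KO.

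The genes around the factors were read from lists of related genes, whose counts stand against the shares of all transcripts called with Torin1: for mRNA 2.73% in ctrl and 9.97% in KO, for footprints 15.6% and 40.6%, and for TE 4.68% and 28.4%. Among 33 other transcription factors of the lineage, 23 were listed in a table, and Tfap2a, Gata6 and Epas1 were among those in none. Of 20 tested for mRNA, 2 rose with Torin1 in ctrl (10.0%) and 4 in KO (20.0%), with none lower. In ctrl the replicate block called 5 higher and 1 lower, and 1 rose without scaling beyond library size. Klf7, a Krüppel-like factor of sensory and sympathetic neurons, rose by 1.17 ± 0.24 (edgeR adjusted p = 0.0234) and 1.08 ± 0.14 (0.000661) on the log2 scale, and Nr4a1, an immediate early nuclear receptor, by 0.56 ± 0.12 (edgeR adjusted p = 0.0344) and 0.67 ± 0.09 (0.00105). At the footprint level 2 of 21 rose and 1 fell in ctrl (14.3% against 15.6% of all transcripts), and 8 of 19 rose in KO (42.1% against 40.6%), shares near the background. Without scaling 7 rose in ctrl and 12 in KO. Sox4, a SoxC factor of neuroblasts, rose in footprints in both (0.71 ± 0.18, edgeR adjusted p = 0.0115, and 1.25 ± 0.13, 1.59e-09), and Tbx2 rose in KO (1.26 ± 0.17, edgeR adjusted p = 3.5e-07). The list medians were 0.21 (mRNA, ctrl), 0.11 (mRNA, KO), 0.44 (footprints, ctrl) and 0.40 (footprints, KO).

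In the list of partners and cofactors of the factors, which also holds competitors for Max, Mnt and Mxd4 had the smallest adjusted p for mRNA. Mnt, which competes with MYC proteins for Max, rose in mRNA by 1.76 ± 0.18 in ctrl (edgeR adjusted p = 0.000152) and 1.47 ± 0.12 in KO (1.7e-05), and in footprints by 1.35 ± 0.28 (edgeR adjusted p = 0.00246) and 1.51 ± 0.19 (9.24e-08). Mxd4, another Max partner that opposes MYC, rose in mRNA by 1.09 ± 0.20 (edgeR adjusted p = 0.0121) and 1.23 ± 0.17 (0.000929). Max mRNA itself changed by -0.24 ± 0.12 in ctrl (edgeR adjusted p = 0.258) and -0.12 ± 0.09 in KO (0.438). Of 25 partners tested for mRNA, 2 rose in ctrl (8% against 2.73% of all transcripts), and 4 rose and 1 fell in KO (20.0% against 9.97%), where the replicate block called 7 higher in ctrl, and 7 higher and 1 lower in KO. In footprints 2 of 24 rose in ctrl (8.33% against 15.6%), and 8 of 25 rose and 3 fell in KO (44.0% against 40.6%). Those footprint splits were 8 and 0 in ctrl and 14 and 0 in KO without scaling beyond library size, and 4 and 1 in ctrl without the shallow ctrl DMSO replicate 3. Ep300, a histone acetyltransferase, rose in footprints by 0.61 ± 0.18 (edgeR adjusted p = 0.0263) and 0.81 ± 0.14 (1.31e-05).

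Myc was in no table. Of 14 MYC family genes and regulators of MYCN tested for mRNA, 0 were called in ctrl (edgeR, 3 at an unadjusted p under 0.05), and in KO 1 rose and 1 fell (14.3% against 9.97% of all transcripts). The replicate block called 1 higher and 1 lower in ctrl, and without scaling beyond library size 0 rose and 1 fell in KO. Aurka, the kinase that stabilises MYCN protein, fell in mRNA in KO (log2 -0.35 ± 0.08, edgeR adjusted p = 0.0159), and Elavl4, which binds MYCN mRNA, rose (0.40 ± 0.11, 0.0479). In footprints 2 rose in ctrl (14.3% against 15.6%), and 5 rose and 1 fell in KO (42.9% against 40.6%), again near the background. In ctrl 4 rose with the replicate block, and without scaling 5 rose in ctrl and 8 in KO, with 0 lower. Usp7, a deubiquitinase of MYCN, rose in both lines (0.70 ± 0.15, edgeR adjusted p = 0.00407, and 0.57 ± 0.12, 0.000202), and Gsk3b, a kinase that marks MYCN for turnover, rose in KO (0.62 ± 0.12, edgeR adjusted p = 0.000143).

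Of 22 known MYCN targets, 0 passed as higher in mRNA with Torin1 in edgeR. In ctrl 0 of 22 were called (edgeR, 3 at an unadjusted p under 0.05, list median -0.04), and in KO 0 rose and 2 fell (median -0.02), Cad, of pyrimidine synthesis (log2 -0.38 ± 0.08, edgeR adjusted p = 0.0142), and Odc1, of polyamine synthesis (-0.23 ± 0.06, 0.0324). The share in KO was 9.09% against 9.97% of all transcripts, and 1 target was called higher there without scaling beyond library size (with 2 lower) and with the replicate block (with 3 lower). At the footprint level 1 rose and 4 fell in ctrl (22.7% against 15.6%), and 7 rose and 5 fell in KO (54.5% against 40.6%), with medians of 0.03 and 0.04. The balance depended on the scaling: without it 4 rose and 2 fell in ctrl, and 11 rose and 3 fell in KO. Without ctrl DMSO replicate 3, 2 rose and 2 fell in ctrl. The nucleolar gene Npm1 fell in footprints in ctrl (log2 -1.50 ± 0.15, edgeR adjusted p = 5.86e-07) and in KO (-1.55 ± 0.11, 1.64e-13), and so did Odc1 (-1.28 ± 0.17, edgeR adjusted p = 2.51e-05, and -1.33 ± 0.13, 4.4e-10).

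The noradrenergic and neuronal genes that the lineage factors are known to control had no called mRNA with Torin1, and in footprints more of them fell than rose in KO cells. Of 19 tested for mRNA, 0 were called with Torin1 in ctrl or in KO (edgeR, 2 and 5 at an unadjusted p under 0.05), and the replicate block called 1 higher and 1 lower in KO. At the footprint level 2 of 21 rose and 6 fell in ctrl (38.1% against 15.6% of all transcripts, median -0.10), and 3 of 20 rose and 10 fell in KO (65.0% against 40.6%, median -0.43). Without scaling beyond library size the ctrl split was even, with 4 higher and 4 lower and a median of 0.11, while in KO 5 rose and 9 fell (median -0.18). Without ctrl DMSO replicate 3 the ctrl split was 2 and 6, with a median of 0.10. Prph, which encodes the neurofilament protein peripherin, fell in footprints in ctrl (log2 -1.84 ± 0.14, edgeR adjusted p = 2.94e-08) and in KO (-1.86 ± 0.11, 7.97e-16). Ngfr, the low-affinity neurotrophin receptor, fell as well (-0.76 ± 0.16, edgeR adjusted p = 0.00258, and -1.49 ± 0.13, 7.11e-11). Dbh, dopamine beta-hydroxylase and a direct target of Phox2a, fell in the same way (-0.72 ± 0.18, edgeR adjusted p = 0.00913, and -1.21 ± 0.19, 3.99e-06). Th, tyrosine hydroxylase, was low, with condition means of 4.96 to 5.84 CPM of mRNA, and passed no test. For TE, 0 rose and 2 fell of 19 in ctrl (1 lower with the replicate block, and 1 higher and 1 lower without scaling beyond library size), and 3 rose and 9 fell of 18 in KO (66.7% against 28.4% of all transcripts, with 5 higher and 6 lower without scaling).

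Dbh also separated the lines. Its footprints were lower in KO than in ctrl under DMSO (log2 -1.10 ± 0.17, edgeR adjusted p = 0.0132) and with Torin1 (-1.57 ± 0.20, 4.61e-07), the only gene of its list called for footprints under DMSO. With Torin1 its mRNA (log2 -0.41 ± 0.09, edgeR adjusted p = 0.0422) and TE (-1.16 ± 0.23, 0.00463) were lower too. Phox2a passed at no level, though its footprints with Torin1 were lower in KO without overlap (-0.33 ± 0.14, edgeR adjusted p = 0.154). A link between Phox2a and Dbh was not tested.

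**Figure D4:**
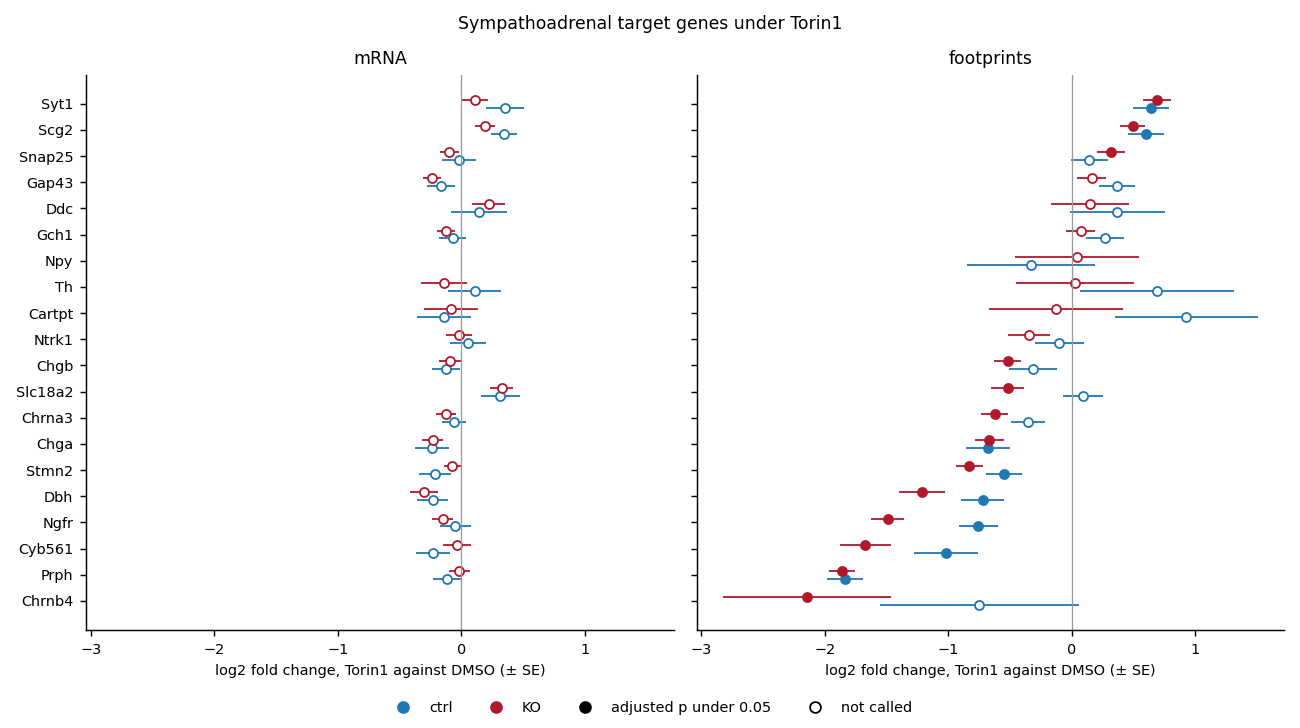
Log2 fold changes (± SE) of mRNA and footprints of the noradrenergic and neuronal target genes with Torin1, in ctrl (blue) and KO (red); filled points passed an adjusted p of 0.05 (edgeR). No mRNA point is filled, and Prph, Ngfr and Dbh footprints lie between -0.72 and -1.86.

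Genes of the mesenchymal neuroblastoma state, the alternative to the noradrenergic one, were listed for 16 of 25. Of 13 tested for mRNA 3 rose in ctrl (23.1% against 2.73% of all transcripts, 6 with the replicate block) and 5 in KO (38.5% against 9.97%), with none lower, among them Fosl2 of the AP-1 family (0.98 ± 0.15, edgeR adjusted p = 0.0052, and 0.98 ± 0.13, 0.000649) and Irf2 (0.76 ± 0.14, edgeR adjusted p = 0.0138, and 0.75 ± 0.08, 0.000208). In footprints 2 rose and 2 fell in ctrl (30.8% against 15.6%), and 5 rose and 3 fell in KO (61.5% against 40.6%). In ctrl 4 rose and 1 fell without scaling beyond library size, and 2 rose and 1 fell without ctrl DMSO replicate 3. Vim, which encodes the intermediate filament vimentin, fell in footprints (-1.79 ± 0.13, edgeR adjusted p = 1.62e-08, and -2.01 ± 0.11, 1.62e-16), whereas Maff, a small Maf factor, rose (1.27 ± 0.27, edgeR adjusted p = 0.00305, and 1.67 ± 0.19, 1.91e-08).

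For TE with Torin1 in ctrl, 4.68% of all transcripts were called, and in these lists 0 of 20 lineage factors, 0 of 24 partners and 0 of 14 MYC regulators (edgeR, 0, 2 and 1 at an unadjusted p under 0.05; 0, 1 and 1 without scaling beyond library size), 1 higher and 2 lower of 22 MYCN targets, and 0 higher and 2 lower of 13 mesenchymal genes (1 lower without scaling and without ctrl DMSO replicate 3). In KO, where 28.4% of all transcripts were called, 4 of 19 lineage factors rose (21.1%), Meis2 (0.85 ± 0.21, edgeR adjusted p = 0.0031) and Tbx2 (0.76 ± 0.19, 0.00318) leading, and 4 partners, 3 MYC regulators, 3 MYCN targets and 2 mesenchymal genes rose while 2, 1, 4 and 3 fell, shares of 24.0%, 28.6%, 31.8% and 38.5%. Without scaling beyond library size 7 lineage factors, 9 partners and 8 MYC regulators rose with 0 lower, 9 MYCN targets rose and 3 fell, and 4 mesenchymal genes rose and 3 fell. With the replicate block 6 MYCN targets rose and 5 fell. Between the lines, beside the noradrenergic genes, 3 genes of these lists were called in edgeR without the replicate block, each with Torin1: Hdac2 footprints were higher in KO (0.36 ± 0.10, edgeR adjusted p = 0.0317), Cad footprints lower (-0.66 ± 0.13, 0.000617) and Fn1 mRNA higher (0.27 ± 0.05, 0.0222). The block called more mRNAs of these lists with Torin1: 3 partners higher, 1 MYC regulator higher and 2 lower, 1 MYCN target higher and 1 lower, and 2 mesenchymal genes higher. Under DMSO it called 2 partners and 1 gene each of the MYC regulators, MYCN targets and mesenchymal genes, all higher. For footprints with Torin1 it called 1 partner higher and 1 lower, 1 MYC regulator higher and 2 MYCN targets lower, and for TE 1 MYC regulator higher, and 1 MYCN target higher and 2 lower.

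The transcripts whose levels ran most like those of the factors over libraries are given as a description, since all points share the same libraries and 4 conditions. For Mycn, the highest Pearson r of log2(CPM + 1) among 9721 transcripts was 0.990 with Dusp6 and 0.988 with Zkscan14 over the 12 RNA-seq libraries, and 0.987 with Nab2 and 0.984 with Hbp1 over the 11 ribo-seq libraries. For Gata3 it was 0.947 with Minpp1 and 0.943 with Adi1 in mRNA, and 0.915 with Nemp1 and 0.906 with Pnp2 in footprints. Hand2 ran most like Fam192a and Psenen in mRNA (0.925 and 0.925) and Sde2 and Bccip in footprints (0.956 and 0.934). Isl1 ran like Ptprs and Magee1 (0.943 and 0.884) in mRNA and like Atl1 and Fbxl19 (0.913 and 0.898) in footprints. For Gata2 the leading mRNAs were Ell and Uhrf1 (0.905 and 0.900), with Cks1b and Mrpl3 (0.907 and 0.888) in footprints. Phox2a was closest to Ccdc85b and Marveld1 (0.919 and 0.911) in mRNA and to Necap1 and Nsun3 (0.910 and 0.889) in footprints. Insm1 had the weakest likeness in mRNA, 0.855 with Marveld1 and 0.854 with Sp6, and 0.889 with Ddhd1 and 0.883 with Il4ra in footprints.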

How the data were processed

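Counts were analysed for 12 RNA-seq and 11 ribo-seq libraries of the 4 conditions. The authors trimmed footprint reads with cutadapt, aligned reads to mm10 (HISAT2) and then to the canonical Ensembl transcriptome (bowtie2), and deposited counts of RNA-seq reads overlapping the CDS, or of riboWaltz P-sites in it, in 8 tables without normalization. Cells for ribo-seq were exposed to cycloheximide before lysis. The authors' edgeR columns and 2 tables of RiboDiff output, with fold changes and p-values, were not used. Where 2 RNA-seq columns of a line shared a name, in the table comparing the lines under DMSO, they were taken as unnumbered replicates.

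Each pair of conditions was fitted in edgeR 4.0.16 (R 4.3.3) with TMM scaling and the quasi-likelihood test. Transcripts over 1 CPM in all libraries of at least 1 condition were kept. The pairwise fits and this filter follow the study's methods, which give edgeR with default settings and do not name the test. TE was tested as the interaction of assay and condition, and the response by line as an interaction over 4 conditions. P-values were adjusted by Benjamini-Hochberg over all transcripts, 5 comparisons for each of 3 measures. Intervals are 1.96 SE on either side. TE ranks and likeness used transcripts with a mean of at least 10 counts in each assay. Alternatives were DESeq2 1.42.0, limma-voom (limma 3.58.1, TE only), the edgeR exact test, other scaling and filter, 1 fit of all conditions, a replicate block and leaving out each library; scripts were tested on simulated data. List counts under 3 of these were added after seeing the data. Per the labels, each replicate is a separate passage, read here as a number marking a passage (whether passages of the lines were handled together is not stated). Same-numbered libraries were checked for shared deviation from the condition means: Pearson r was -0.0304 to 0.532 (median 0.0933) in RNA-seq and -0.0306 to 0.145 (median 0.0435) in ribo-seq. Between libraries of different number it was -0.397 to 0.277 (median -0.0491) and -0.140 to 0.115 (median -0.0289), so the medians were higher for the same number.

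The 7 factors and all lists were chosen with earlier results of these data known. Named were the 7, Eif4e3, Myc, Max, Th, Dbh and, per list and comparison, up to 2 called genes with the smallest adjusted p. Some other genes that the rule names are not reported here. Of 12759 transcripts, 12702 matched the annotation by identifier.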

Additional observations from a re-analysis of the deposited data

How the results depend on the processing

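Counts of called factors, of 7, kept within 1.5 times of the main value except as follows. mRNA with Torin1 in ctrl: 2 in place of 1 by DESeq2, by the replicate block, by the exact test and in the fit of all 4 conditions, and 1 to 2 when 1 library was left out. mRNA with Torin1 in KO: 2 in place of 4 in the fit of all 4 conditions, and 2 to 4 when 1 library was left out. mRNA of KO against ctrl: under DMSO 1 in place of 0 by the replicate block and the exact test, and with Torin1 0 in place of 1 in the fit of all 4 conditions and when any 1 library was left out. Footprints with Torin1 in ctrl: 2 in place of 1 without scaling beyond library size and by the replicate block, and 1 to 3 when 1 library was left out. Footprints of KO against ctrl with Torin1: 0 to 2 when 1 library was left out. TE with Torin1 in ctrl: 0 to 1 when 1 library was left out. TE of KO against ctrl with Torin1: 0 in place of 1 by limma-voom, and 0 to 1 when 1 library was left out. The causes were not tested. The replicate block changed 4 calls, each given beside its result, and no other call of a factor. It also raised the calls over all transcripts, for mRNA from 299 to 1328 (Torin1 in ctrl), from 1097 to 1797 (Torin1 in KO), from 2 to 866 (KO against ctrl under DMSO) and from 216 to 1041 (with Torin1), and for TE from 299 to 541 (KO against ctrl with Torin1). DESeq2 called 723 (Torin1 in ctrl), 21 (KO against ctrl under DMSO) and 342 (with Torin1) for mRNA. Of mRNAs called between KO and ctrl with Torin1, 51.4% were higher, and 64.0% without scaling beyond library size. Of 105 values of the factors, 25 had an unadjusted p under 0.05. For the 15 of these that were called, 154 alternatives kept the call and 40 lost it. For the other 10, 118 alternatives made no call and 10 made one. None of these alternatives reversed a direction, while 43 of the 105 values, all with a larger p, changed sign in at least 1 alternative. Of the list counts recomputed, 178 stayed within 1.5 times and 38 did not. Ctrl DMSO has 2 footprint libraries, with 11 to 129 counts for a factor in the shallow one, and the SE of a footprint change with Torin1 was 0.17 to 0.30 in ctrl (log2) against 0.14 to 0.25 in KO.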
